A study of Mus musculus with 6 samples.

Results

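The S100 genes described here are S100a1, S100a3, S100a4, S100a6, S100a10, S100a11, S100a13, S100a14 and S100a16, the 9 rows so named among the 31017 rows of a table of read counts. Poly(A) RNA came from 4T1, a mouse mammary carcinoma line, in 6 libraries. In 3 control libraries Cas9 and control guide RNAs had been delivered by nucleofection. In 3 libraries labelled FGFR2 KO, and called KO libraries here, Cas9 came with guides against FGFR2, a fibroblast growth factor receptor with tyrosine kinase activity. All 6 were grown in collagen I gels (1.2 or 2.4 mg/ml, with no record of which library had which) and were freed with collagenase before RNA extraction. The labels do not say whether the edited cells were a pool or a clone. The comparison asks which transcripts in a collagen matrix differ with the guides against FGFR2. Levels are in CPM, counts per 1000000 counts of a library, and 3 values in a row follow replicates 1, 2 and 3.

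S100 proteins are small, mostly dimeric proteins found in vertebrates. Each subunit carries a pair of EF-hands, which are helix-loop-helix units that hold calcium in the loop. Calcium binding opens a cleft in most members, and the opened dimer grips a target such as an annexin or myosin II. Some members also leave the cell by unconventional routes and act on surface receptors such as RAGE, the product of Ager. In carcinomas S100a4 is known for its link to motility and metastasis, S100a10 for its complex with annexin A2 at the plasma membrane, and S100a8 and S100a9 as products of myeloid cells.

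The second EF-hand loop sets members apart in sequence, so its coding bases are shown for all 9. Each line gives the 36 bases, 5′ to 3′, of the 12 codons, read from GENCODE M21 transcripts, with codons 1, 3, 5 and 12 in capitals because the side chains at these positions normally hold the calcium ion.
S100a1: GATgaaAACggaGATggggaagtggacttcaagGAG
S100a3: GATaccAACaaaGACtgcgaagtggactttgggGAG
S100a4: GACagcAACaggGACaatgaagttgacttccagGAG
S100a6: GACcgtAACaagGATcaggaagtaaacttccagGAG
S100a10: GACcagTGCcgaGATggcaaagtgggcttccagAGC
S100a11: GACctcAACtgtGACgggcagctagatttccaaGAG
S100a13: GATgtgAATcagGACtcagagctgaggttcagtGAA
S100a14: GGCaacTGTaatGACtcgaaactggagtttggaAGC
S100a16: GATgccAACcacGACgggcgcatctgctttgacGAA
In 7 of the 9 the last codon of the loop is GAA or GAG, and the third is AAC or AAT in the same 7. These 7 loops were located by a pattern that itself limits the residues at codons 1, 3, 5 and 12. Codon 12 had to encode aspartate or glutamate, and codon 3 aspartate, asparagine or serine. S100a10 and S100a14 lack the pattern, and their loops were placed by alignment to S100a4. They differ at both codons, and S100a14 also differs at codon 1 (GGC). S100a10 is known as a member that does not bind calcium and is locked in the open form. Translated and aligned, the closest pair of members were S100a4 and S100a6, with 49.4% identical positions, and the most distant were S100a10 and S100a16, with 21.6%.

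The libraries held between 15531790 and 20447719 counts, and replicates differed by a biological coefficient of variation of 4.00%. Fgfr2 itself had 1777, 1948 and 1649 counts with control guides and 1896, 1589 and 1928 with FGFR2 guides, overlapping groups with a log2 fold change of -0.11 (edgeR adjusted p = 0.113). The transcript total thus does not check the label, and the targeted exon is not given in the sources used here. The markers of mammary carcinoma cells were present. Over 7 genes their summed level was 4317 to 4426 CPM in the control and 3505 to 3589 CPM in the KO libraries. With an edgeR adjusted p below 0.05, 1 of the 7 rose and 5 fell. Over all tested genes 27.1% rose and 27.5% fell. Of 12 neutrophil and myeloid markers 6 had 0 counts in all libraries, Ly6g, Mpo and Elane among them, and the list summed to 0.581 to 1.53 CPM in the control and 1.18 to 2.07 CPM in the KO libraries. Of 8 lymphocyte markers 7 were at 0. Of 9 fibroblast and endothelial markers 2 were at 0, and the list summed to 36.4 to 38.5 CPM in the control and 40.1 to 45.6 CPM in the KO libraries. Most of it was Pdgfra, which did not pass the test (36.4 and 39.4 CPM, edgeR adjusted p = 0.143). Col1a1 rose from 0.437 to 1.24 CPM (log2 fold change 1.47, edgeR adjusted p = 0.00338). Dcn had 2, 0 and 0 counts with control guides and 11, 10 and 12 with FGFR2 guides, and Pdgfrb had 0, 0 and 2 against 8, 6 and 12, both too few to be tested. Their part in the S100 results was not tested. In bulk RNA, fewer cells with a transcript and less of it per cell cannot be told apart.

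All 9 members passed the filter on low counts. Of these, 8 differed between the KO and the control libraries by edgeR's quasi-likelihood test with a Benjamini-Hochberg adjusted p below 0.05, 5 higher and 3 lower. Of all 12158 tested genes 54.6% were called (27.1% higher and 27.5% lower). For 8 of the 9 members the KO and control libraries did not overlap, a pattern shown by 59.5% of tested genes. The changes were modest. The median absolute log2 fold change of the members was 0.38, beside 0.21 over all tested genes, and 0 of 9 passed when tested with edgeR against a minimum fold change of 1.5, where 7.46% of tested genes did. At that minimum 1 member had an unadjusted p below 0.05, and the adjusted p of S100a10 was 0.408. S100a10, S100a4, S100a13, S100a6 and S100a11 rose, S100a16, S100a14 and S100a3 fell, and S100a1 did not pass the test.

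**Figure D1:**
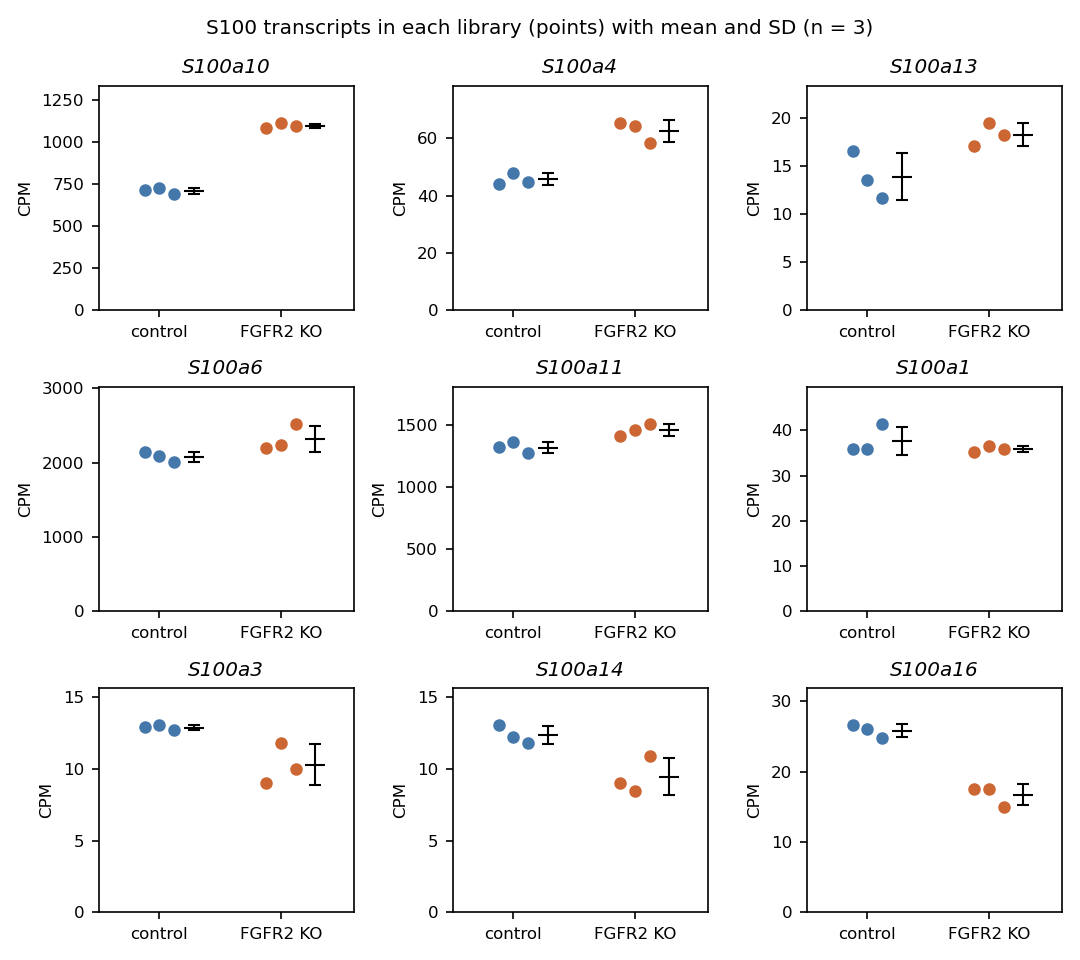
Level in CPM (linear axes from 0) of the 9 S100 genes in each of the 3 control (blue) and 3 FGFR2 KO (orange) libraries, with the mean and SD of each group in black. The groups are far apart for S100a10 and S100a16, nearly touch for S100a13, S100a6 and S100a11, and overlap for S100a1.

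S100a10, the light chain of the annexin A2 complex, showed the largest rise among the members. It measured 713, 728 and 693 CPM with control guides against 1082, 1110.3 and 1094 CPM with FGFR2 guides. Every KO library lay far above every control library. The mean went from 712 ± 17.5 to 1095 ± 14.3 CPM (SD, n = 3 each). This 1.54-fold rise is 0.62 on the log2 scale (SE 0.032, 95% interval 0.56 to 0.69, edgeR adjusted p = 6.63e-19).

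Anxa2, the annexin that S100a10 binds and that keeps the S100a10 protein from being degraded, rose as well, from 974 ± 11.3 to 1379 ± 30.0 CPM (log2 fold change 0.50, SE 0.031, edgeR adjusted p = 2.04e-16). On counts per kb of exon, the ratio of S100a10 to Anxa2 was 2.28, 2.30 and 2.17 with control guides against 2.40, 2.44 and 2.50 with FGFR2 guides. The ratio was thus slightly higher in each KO library than in any control library. Ahnak, a giant scaffold protein that docks on the S100a10 and annexin A2 complex, rose from 1423 ± 42.6 to 1987 ± 138 CPM (SD, n = 3; log2 fold change 0.48, edgeR adjusted p = 5.08e-14).

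S100a11, which binds annexin A1 and is also a substrate of transglutaminases, was among the most abundant transcripts, ranking 51 of the 12158 tested genes by mean CPM. It measured 1322, 1361 and 1275 CPM with control guides against 1409.9, 1463 and 1506 CPM with FGFR2 guides. The groups did not overlap, but the gap between them was small. Fitted by edgeR, the log2 fold change came to 0.15 (95% interval 0.08 to 0.21, SE 0.033, edgeR adjusted p = 2.64e-04). Of the 50-base words in its transcript, 41.1% also occur in transcripts of 3 other annotated genes, Gm12854, Gm7665 and Gm29240, and how reads with several matches were counted is not given in the sources used here.

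S100a6, also called calcyclin, was the highest of the members in CPM and ranked 18 among all tested genes. It measured 2137, 2093 and 2003 CPM with control guides against 2198, 2243 and 2514 CPM with FGFR2 guides. KO replicate 3 was well above the other two, which lay close to control replicate 1. KO over control, the log2 fold change came to 0.16 (95% interval 0.08 to 0.23, SE 0.037, edgeR adjusted p = 3.81e-04), and without KO replicate 3 it was 0.097 (edgeR adjusted p = 0.013). Cacybp, the calcyclin binding protein and a partner of S100a6 in protein turnover, rose from 127 ± 2.58 to 178 ± 4.25 CPM (SD, n = 3; log2 fold change 0.48, edgeR adjusted p = 9.65e-13).

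S100a4, known as metastasin or fibroblast-specific protein, binds the heavy chain of non-muscle myosin IIA and promotes disassembly of its filaments. It measured 44.3, 48.1 and 44.7 CPM with control guides against 65.3, 64.3 and 58.4 CPM with FGFR2 guides. All KO libraries were above all control libraries. The fibroblast markers Col1a1, Dcn and Pdgfrb were also higher in each KO library, at the low counts given above. Others of that list were not. Col3a1 had 0 counts in all libraries, and Col1a2 had 1, 0 and 0 against 1, 1 and 1. Pdgfra, the most abundant, did not pass the test (edgeR adjusted p = 0.143). The part of fibroblast markers in the S100a4 result was not tested. On the log2 scale the difference in S100a4 came to 0.45 (95% interval 0.33 to 0.57, SE 0.058, edgeR adjusted p = 2.60e-08), or 1.37-fold. In the annotation 51.7% of its exon bases lie under exons of Gm42674, a same-strand gene model that reaches from S100a3 into S100a4. Gm42674 had 52 counts over all libraries, and reads that could be assigned to either gene may have been left out of both, so the absolute level of S100a4 is uncertain. Myh9, the myosin heavy chain that S100a4 binds, rose slightly, from 997 ± 16.4 to 1095 ± 7.99 CPM (log2 fold change 0.14, edgeR adjusted p = 3.50e-04). Myh14, a further non-muscle myosin heavy chain, rose from 75.8 ± 3.96 to 153 ± 10.8 CPM (log2 fold change 1.02, edgeR adjusted p = 1.25e-19), while Myh10 did not pass the test (-0.08, edgeR adjusted p = 0.0516).

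S100a13 takes part in the export of proteins that lack a signal peptide, Fgf1 and interleukin-1 alpha among them. It measured 16.6, 13.5 and 11.7 CPM with control guides against 17.1, 19.5 and 18.3 CPM with FGFR2 guides. The lowest KO library lay just above the highest control library. The fitted log2 change, KO over control, was 0.39 (95% interval 0.17 to 0.60, SE 0.10, edgeR adjusted p = 0.00207). The cargo gene Il1a moved the other way, from 94.1 ± 3.91 to 34.2 ± 3.30 CPM (SD, n = 3; log2 fold change -1.46, edgeR adjusted p = 3.87e-22), and Fgf1 was near 1 CPM, at 1.22 in the control and 1.04 in the KO libraries, and did not pass the test (edgeR adjusted p = 0.573). Of 4 tested genes listed for this export route, 2 rose, where 27.1% of all tested genes did. They were Sphk1 (log2 fold change 0.46, edgeR adjusted p = 7.78e-08) and Casp1 (0.38, edgeR adjusted p = 3.59e-04).

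S100a1, best known from heart and skeletal muscle where it raises calcium cycling, is the direct neighbour of S100a13 and is read in the opposite direction. It measured 35.97, 35.8 and 41.3 CPM with control guides against 35.3, 36.6 and 35.9 CPM with FGFR2 guides. The groups overlapped, and control replicate 3 stood apart from the other 5 libraries. The log2 fold change was -0.07 (SE 0.067, edgeR adjusted p = 0.422), with a 95% interval of -0.20 to 0.07 that leaves room for a level of 0.870 to 1.05 of the control. Without control replicate 3 it was 0.0015 (edgeR adjusted p = 0.988).

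S100a16, a broadly expressed member with a single working EF-hand, showed the largest fall. It measured 26.6, 26.0 and 24.8 CPM with control guides against 17.5, 17.6 and 15.1 CPM with FGFR2 guides. All KO libraries were well below all control libraries. Fitted by edgeR, the log2 fold change came to -0.63 (95% interval -0.80 to -0.45, SE 0.085, edgeR adjusted p = 9.21e-08), a level of 0.647 of the control. Of tested genes outside the family that reached 20 CPM on average, the 3 whose log2 CPM over the 6 libraries were most like those of S100a16 were Fkbp11, Nfia and Dennd1b, each with a Pearson correlation of 0.997 to 0.998. These 6 points form the 2 groups of the study, so any gene with a similar direction and little noise scores high. Fkbp11 fell from 28.3 to 17.2 CPM, and the falls of Nfia and Dennd1b (log2 fold changes of -0.25 each) were smaller.

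S100a14, a member found mainly in epithelia, measured 13.03, 12.2 and 11.8 CPM with control guides against 8.99, 8.48 and 10.9 CPM with FGFR2 guides. The groups did not overlap, with KO replicate 3 nearest to the control libraries. KO over control, the log2 fold change came to -0.38 (95% interval -0.62 to -0.15, SE 0.12, edgeR adjusted p = 0.00576). With 166 counts in its lowest library, counting error alone gives a coefficient of variation of 7.76% there.

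S100a3, a cysteine-rich member known from hair cuticle, measured 12.9, 13.05 and 12.7 CPM with control guides against 9.04, 11.8 and 10.0 CPM with FGFR2 guides. The control libraries were nearly equal, and the KO libraries were lower but spread. On the log2 scale the difference came to -0.32 (95% interval -0.55 to -0.09, SE 0.11, edgeR adjusted p = 0.0158). The call was lost with DESeq2 (adjusted p = 0.0654) and, with edgeR, without KO replicate 1 (adjusted p = 0.0992).

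**Figure D2:**
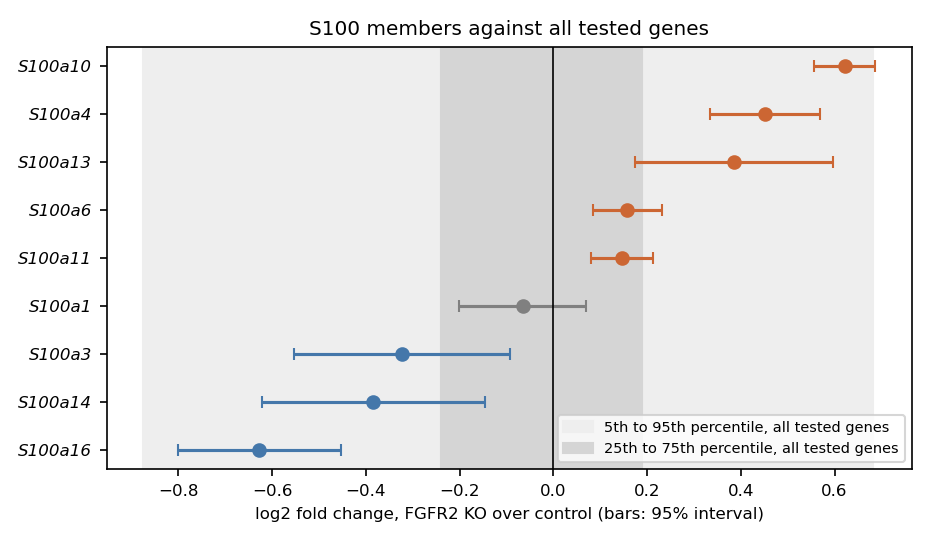
Log2 fold change of each S100 gene, KO over control, with its 95% interval from edgeR, for genes that rose (orange), fell (blue) or did not pass the test (grey). The shaded bands hold the middle of all tested genes (25th to 75th percentile, -0.24 to 0.19) and the 5th to 95th percentile (-0.87 to 0.68), and all 9 point estimates lie within the wider band.

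Levels of different members were compared per length, as CPM per kb of all annotated exon bases. S100a11 led with 2582 ± 84.9 in the control libraries, followed by S100a6 with 1519.9 ± 50.01 and S100a10 with 587 ± 14.5 (SD, n = 3). These 3 stood far above S100a4 with 78.2 ± 3.59, S100a1 with 54.3 ± 4.49, S100a13 with 19.5 ± 3.45, S100a16 with 15.96 ± 0.575, S100a14 with 7.15 ± 0.359 and S100a3 with 2.28 ± 0.0296. In the control libraries S100a13 and S100a16 differed by about their spread. Except for S100a10, S100a4 and S100a1, the order rests on the length used. With the longest coding transcript in place of all exon bases, S100a6 (2654 ± 87.3) and S100a11 (2582 ± 84.9) differed by less than the sum of their SDs, S100a16 (22.9 ± 0.826) came to lie above S100a13 (19.5 ± 3.45), and S100a3 (18.1 ± 0.235) reached the level of S100a13 and lay above S100a14 (11.7 ± 0.585). The exon union of S100a3 holds long noncoding models.

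**Figure D3:**
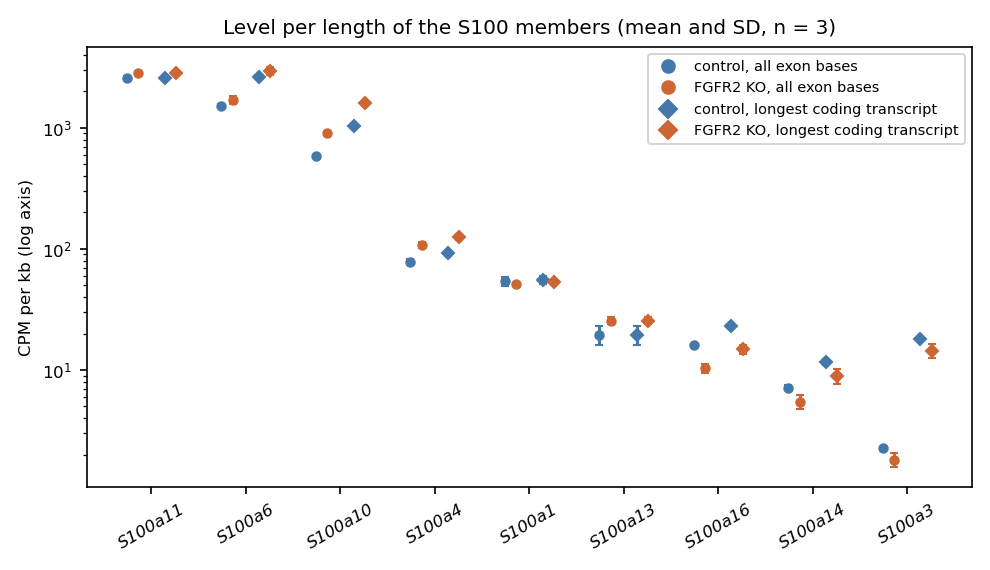
Level of each S100 gene per length (CPM per kb, log axis) in control (blue) and KO (orange) libraries, as mean and SD of 3 libraries, for all exon bases (circles) and for the longest coding transcript (diamonds). S100a11, S100a6 and S100a10 stand above the other 6 with either length.

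Within the family, S100a10 took a larger part of the total in the KO libraries. On counts per kb, its share of the sum over the 9 members was 12.1% ± 0.0911 in the control and 15.98% ± 0.560 in the KO libraries (SD, n = 3). S100a11 held 53.1% ± 0.472 and 50.5% ± 0.387, and S100a6 held 31.2% ± 0.525 and 29.9% ± 1.14. For S100a6 the groups overlapped, and the difference of -1.29 percentage points was -1.94 without KO replicate 3. S100a4 stood at 1.61% ± 0.0591 and 1.90% ± 0.180, and S100a16 at 0.328% ± 0.00586 and 0.183% ± 0.0220. A share needs no scaling between libraries, but shares that sum to a whole are not independent. As CPM, the 9 members together gave 4321, 4331 and 4118 with control guides against 4843, 4975 and 5263 with FGFR2 guides.

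All 9 members lie on chromosome 3 (mm10), in a pair of blocks. A block of 113 kb holds S100a1 (90511034 to 90514392, minus strand) and, on the plus strand, S100a13 (90514435 to 90524581), S100a14 (90526856 to 90528837), S100a16 (90537254 to 90543151), S100a3 (90560578 to 90602702), S100a4 (90603771 to 90606045) and S100a6 (90612882 to 90624181). S100a11 (93520488 to 93526287) and S100a10 (93555080 to 93564643) lie 2896 kb further on, within 44 kb. In this order, the 3 members that fell (S100a14, S100a16 and S100a3) stand next to each other, between S100a13, which rose, and S100a4 and S100a6, which rose. Between the first and the last member, 4 other genes were tested, of which S100a7a fell, the fused-type S100 gene Tchh rose and Gm42674 and Gm9774 did not pass. Of the 5 tested genes on either side, 10 in all, 1 rose, 3 fell and 6 did not pass. Of all tested genes 54.6% were called.

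**Figure D4:**
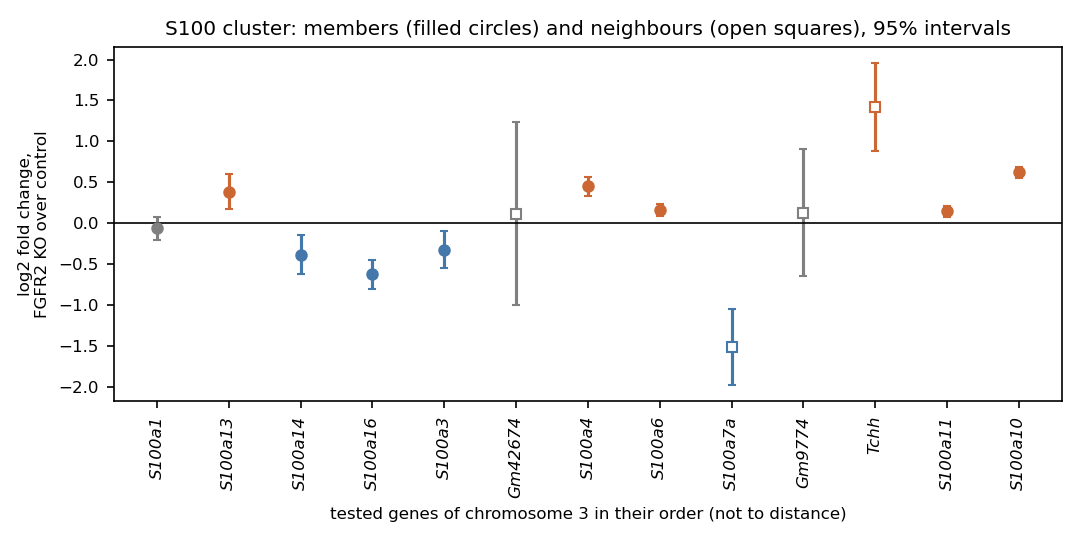
Log2 fold change with its 95% interval for the tested genes from the first to the last S100 member on chromosome 3, in their order along the chromosome and not to distance, with members as filled circles and other genes as open squares (orange rose, blue fell, grey did not pass). S100a14, S100a16 and S100a3 form a run of falls among the members, flanked by S100a13, S100a4 and S100a6, which rose.

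S100a1 and S100a13 are divergent genes with 42 bases between their starts in GENCODE M21. Their RefSeq promoter windows (250 bases before to 50 bases after a start, GRCm38.p6) share 204 bases. In RefSeq the start of S100a1 lies further inside that gene, so the gap between the starts is wider there. The bases between the GENCODE starts are shown because S100a13, on the plus side, rose and S100a1, on the minus side, did not pass the test.
chr3:90514393-90514434, plus strand: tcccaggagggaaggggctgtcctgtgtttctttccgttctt
The difference between the responses of these neighbours was not itself tested.

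RefSeq promoter windows were matched for 7 of the 9 members (not S100a10 and S100a14), 11 windows in all. Letters of 8 motifs were searched on both strands. The 150 bases before the start are shown for S100a4 and S100a11, which rose, 1 with a TATA box match and 1 with GC box matches, with all matches of the motifs below in capitals.
S100a4, chr3:90603620-90603769, plus strand: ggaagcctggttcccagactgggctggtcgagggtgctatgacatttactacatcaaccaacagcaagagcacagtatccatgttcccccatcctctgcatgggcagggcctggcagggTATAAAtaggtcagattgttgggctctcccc
S100a11, chr3:93520346-93520495, plus strand: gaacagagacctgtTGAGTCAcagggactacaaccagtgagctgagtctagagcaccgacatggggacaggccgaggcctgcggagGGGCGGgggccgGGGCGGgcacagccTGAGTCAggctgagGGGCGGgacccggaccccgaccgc
S100a4 has the TATA box letters TATAAA with the first base at -31 from the start, letters that 13.6% of all 32851 windows hold. S100a11 has the AP-1 letters TGANTCA at -136 and -38 (7.81% of windows hold at least 1 match) and the GC box letters GGGCGG at -64, -52 and -24 (35.7% of windows). Over the members, 2 of 11 windows held AP-1 letters, 3 held a GC box, 2 held TATAAA, 2 held CCAAT (37.4% of all windows), 2 held the hypoxia response core ACGTG (19.6%) and 1 held the TEAD letters GGAATG (14.7%). The longer NF-kB motif and a CArG form matched 0 of the 11 and 0.155% and 0.0639% of all windows. Members that fell held some of the same letters. A window of S100a16 held AP-1 letters and a GC box, and windows of S100a3 held TATAAA and a GC box. Such matches describe letters only.

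The rest of the S100 family was nearly silent. Of 10 further family names searched, 8 had a row, and S100a7l2 and S100a15 matched none. Of these 8 genes, 3 (S100a9, S100g and S100z) had 0 counts in all libraries, and only S100a7a could be tested. S100a7a, a relative of human psoriasin, fell from 4.30 ± 0.242 to 1.503 ± 0.157 CPM (SD, n = 3; log2 fold change -1.52, edgeR adjusted p = 7.30e-07), a larger change than that of any of the 9 members. S100a8, the myeloid partner of S100a9, had 0, 19 and 13 counts with control guides against 1, 4 and 2 with FGFR2 guides, too few to be tested. Of 7 fused-type S100 genes, which join an S100 domain to long repeats, 6 had 0 counts in all libraries, and Tchh rose from 1.17 ± 0.185 to 3.16 ± 0.459 CPM (log2 fold change 1.42, edgeR adjusted p = 2.39e-05).

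Of 10 tested annexins, calcium-dependent membrane-binding proteins that include S100 targets, 4 rose and 5 fell, where 54.6% of all tested genes were called. Their median log2 fold change was -0.02, beside -0.0061 over all tested genes. The 3 most abundant were Anxa2, Anxa1, which rose from 774 ± 7.43 to 1069.7 ± 10.99 CPM (log2 fold change 0.47, edgeR adjusted p = 1.64e-15), and Anxa5, which fell from 985 ± 14.1 to 601 ± 8.53 CPM (-0.71, edgeR adjusted p = 8.67e-21). Anxa1 is a partner of S100a11, and Anxa2 is a partner of S100a10. Anxa8, named after its value was seen, rose from 4.97 ± 0.0643 to 39.1 ± 2.99 CPM (log2 fold change 2.98, edgeR adjusted p = 7.09e-25). Of 15 other tested partners 9 rose, 1 fell and 5 did not pass (median 0.19). Their called share of 66.7% was near the 54.6% of all tested genes, of which 27.1% rose and 27.5% fell. The 3 most abundant of them were Ahnak, Myh9 and the scaffold Iqgap1, which rose from 393 ± 3.28 to 449 ± 19.7 CPM (log2 fold change 0.19, edgeR adjusted p = 2.18e-05).

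**Figure D5:**
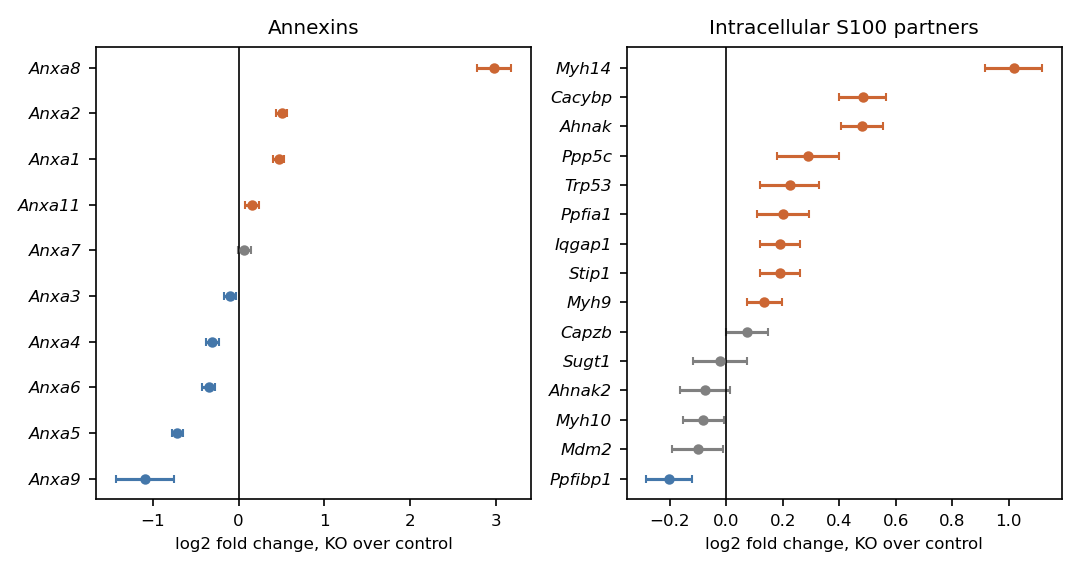
Log2 fold change, KO over control, with its 95% interval for the tested annexins (left) and other intracellular S100 partners (right), for genes that rose (orange), fell (blue) or did not pass the test (grey). The annexins split, with Anxa2 and Anxa1 up and Anxa5 down. Of the 15 other partners 9 rose, where 27.1% of all tested genes did.

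Of 8 tested surface receptors of secreted S100 proteins, 5 fell, 2 rose and 1 did not pass (27.5% of all tested genes fell and 27.1% rose), with a median log2 fold change of -0.18. Bsg (basigin) fell from 535 ± 12.3 to 484 ± 14.1 CPM (-0.14, edgeR adjusted p = 5.22e-04) and Alcam from 74.0 ± 4.73 to 50.5 ± 1.24 CPM (-0.55, edgeR adjusted p = 7.34e-11), while Nptn (neuroplastin) rose from 212 ± 13.3 to 233 ± 6.69 CPM (0.14, edgeR adjusted p = 0.00532). Mcam, an adhesion molecule named after its value was seen, rose from 4.52 ± 0.818 to 17.7 ± 1.52 CPM (log2 fold change 1.96, edgeR adjusted p = 9.91e-16). Ager, the gene of RAGE and likewise named after its value was seen, was close to the detection limit and fell from 1.34 ± 0.495 to 0.332 ± 0.314 CPM (SD, n = 3; 95% interval of the log2 fold change -2.97 to -1.02, edgeR adjusted p = 6.11e-04).

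The S100a10 and annexin A2 complex is also known as a docking site for plasminogen and its activator. Of 7 tested genes of the plasminogen system, 2 rose, 3 fell and 2 did not pass (median -0.06). Of all tested genes 27.1% rose and 27.5% fell. Eno1, a glycolytic enzyme that also binds plasminogen, fell from 1786 ± 7.89 to 1084.5 ± 25.7 CPM (log2 fold change -0.72, edgeR adjusted p = 2.08e-21). The activator gene Plau fell from 255 ± 12.4 to 194 ± 3.54 CPM (-0.39, edgeR adjusted p = 9.90e-11), and its receptor Plaur did not pass the test, at 253 ± 7.98 and 243 ± 1.51 CPM (edgeR adjusted p = 0.187).

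Of 31 other tested EF-hand genes, which bind calcium with the same kind of loop, 10 rose, 4 fell and 17 did not pass (median log2 fold change 0.01). The called share was 45.2%, below the 54.6% of all tested genes. The calmodulin gene Calm2, the most abundant of them, rose from 548 ± 7.91 to 640 ± 9.33 CPM (SD, n = 3; log2 fold change 0.22, edgeR adjusted p = 4.08e-07). The secretory pathway gene Calu did not pass, at 446 ± 10.7 and 470 ± 16.04 CPM (edgeR adjusted p = 0.0589). Of 9 transglutaminase and cornified envelope genes, 5 had 0 counts in all libraries, and Tgm2, which crosslinks proteins and was the only member tested, did not pass, at 69.4 ± 1.74 and 66.9 ± 1.82 CPM (edgeR adjusted p = 0.396).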

How the data were processed

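The authors deposited raw read counts per gene symbol, 1 column per library. FastQC 0.11.9, STAR 2.7.9a, featureCounts and R 4.1.1 are named, per the submitters' processing notes, with builds hg38 and mm10 and no roles. Annotation, strand setting and treatment of multiply matching reads: not given in the sources used here. Columns were matched to libraries by name. Counts were tested with edgeR 4.0.16 in R 4.3.3 (filterByExpr, minimum count 10, minimum total 15, TMM scaling, group as the only term, quasi-likelihood F-test), with Benjamini-Hochberg adjustment over all tested genes and a threshold of 0.05. Fold changes (log2, KO over control) use a prior count of 0.125, an SE is the fold change over the root of F, and CPM are relative to the TMM-scaled total of the tested genes. DESeq2 1.42.0 and limma 3.58.1 (voom) were alternatives. Positions and lengths are from GENCODE M21, promoter windows from RefSeq (GRCm38.p6).

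The members and gene lists were chosen with earlier results of these data known. The rule for named genes took all 9 members, the 3 tested genes with the highest mean CPM in each list, the 3 genes most like the member with the largest change, and the genomic neighbours (some genes under this rule are not reported here); others were chosen after their values were seen, such as Cacybp, Myh14, Myh10, Fgf1, Anxa8, S100a8, Mcam, Dcn, Pdgfrb and Ager. Whether the numbered replicates were separate cultures is not stated in the labels; p-values then reflect only how these 6 libraries vary, possibly for technical reasons. All replicate pairs differed by more than counting noise (chi-square divided by its degrees of freedom, 2.28 to 4.69).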

Additional observations from a re-analysis of the deposited data

How the results depend on the processing

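DESeq2 called 7 of the 9 members (S100a3 was lost) and 41.3% of the 13944 genes it tested. Limma-voom, RLE and upper quartile scaling, no filter, a filter of 5 CPM in 3 libraries and the replicate block each called 8. The genes called in all were 6616 with limma-voom, 6639 with RLE and 6572 with upper quartile scaling, each of 12158 tested. They were 6694 of 17531 with no filter and 5901 of 10148 with the 5 CPM filter. Against a minimum fold change of 1.5, edgeR called 0 members (1 at an unadjusted p below 0.05) and 907 genes in all. Leaving out 1 library at a time gave 7 to 8 called members. It gave 5922 to 6276 called genes of 12327 to 12392 tested, against 6639 of 12158. The log2 fold change of S100a1, which was not called, turned to 0.0015 without control replicate 3. Same-numbered libraries of the groups did not deviate together (correlations of -0.029, -0.0032 and -0.064). The labels do not say whether a number marks a shared culture or day, and these correlations cannot settle it. With the replicate block 6443 of 12158 genes were called. Without division by length the KO minus control difference in share, in percentage points, was -0.098 for S100a3, -2.72 for S100a6, 5.1 for S100a10, -1.94 for S100a11, -0.10 for S100a14, -0.27 for S100a16 and 0.18 for S100a4 (0.29 per length). With the longest coding transcript, a choice made after seeing the data, it was -0.090 for S100a3, -2.24 for S100a6 (-1.29 with all exon bases), 4.90 for S100a10 and -0.063 for S100a14. Members with 166 to 529 counts per library (S100a3, S100a13, S100a14 and S100a16) have the widest intervals.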
